A study of Mus musculus with 148 samples.

Results

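A set of 8 genes that marks regulatory T cells (Tregs) were followed through a single-cell atlas of immune cells from breast tumors and lung metastases in mice: Foxp3, Il2ra, Ikzf2, Ctla4, Tnfrsf4, Tnfrsf9, Tnfrsf18 and Icos. The genes were chosen by name as known Treg genes, with earlier results of these data known, and all 8 were found among the 52634 gene rows of the plate count files. Each gene was described by its level in CPM, the UMIs of the gene per 1000000 UMIs (unique molecular identifiers, tags that mark single captured transcripts), and by the share of cells with at least 1 UMI of it, summed per mouse, tissue and cell label.

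Female C57/b6 PA-GFP mice, 8 weeks old at injection, received EO771-tdTomato breast cancer cells in a mammary gland, tumors were resected 3 weeks later, and lungs were followed by CT until metastases appeared. All animals carried the PA-GFP transgene, whose product becomes fluorescent after photoactivation, so that host cells of a chosen region could be sorted. The 148 plates came from 27 mice and made 63 samples, a sample being 1 mouse and 1 tissue: normal lungs of control mice (Normal, 3 mice), lungs of tumor-bearing mice before resection (Pre-MET, 3), lungs of mice without relapse (Relapse-free, 6), primary tumors (Primary, 4), lung sections without metastasis from mice with metastases (Distal normal tissue, 14), sections with a metastasis (MET, 13), the photoactivated metastasis center (MET Core, 13) and its photoactivated border (MET Invasive margin, 7). Cells of MET Core and MET Invasive margin were sorted as CD31- and photoactivated without a CD45 gate, except those of 1 MET Core mouse, which were also gated on CD45, whereas Normal, Pre-MET, Primary, Distal normal tissue and MET cells were sorted as CD31- CD45+, and Relapse-free plates held several gates. The gate and the tissue can therefore not be told apart in a comparison of Primary with MET Core.

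The deposited annotation gave 23425 immune cells 27 labels, of which 7 were T cell labels with 6846 cells in all. The label T_Treg held 206 cells. The others were T_CD4_Lef1 with 3026 cells, T_CD8_Gzmk with 1612, T_CD4_S100a4 with 903, T_CD8_Dapl1 with 377, T_CD8_Gzma with 375 and T_CD8_Lag3 with 347. T cells per sample numbered from 6 to 875 and their summed UMIs from 4111 to 1125282, so the samples with few cells carried little information on genes of low abundance. The median UMI count of a T cell, taken as the median over samples, was 2060 in Primary and between 688 and 1159 in the other 7 tissues.

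Tregs are CD4 T cells that restrain other immune cells. Foxp3 encodes the transcription factor that defines the lineage, and Ikzf2 encodes Helios, a zinc finger factor found in many of them. Il2ra encodes the alpha chain (CD25) of the high-affinity interleukin-2 receptor, through which Tregs sense and consume that cytokine. Ctla4 encodes an inhibitory receptor that competes with CD28 for CD80 and CD86. Tnfrsf4 (OX40), Tnfrsf9 (4-1BB) and Tnfrsf18 (GITR) are costimulatory receptors of the tumor necrosis factor receptor family, and Icos encodes a costimulatory relative of CD28. Apart from Foxp3, each is also induced in other activated T cells, and Tregs of tumors are known for high levels of several of them.

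In the mouse genome (mm10, GENCODE annotation), Foxp3 lies at chrX:7573644-7595245 on the plus strand, Il2ra at chr2:11642807-11693193 on the plus strand and Ikzf2 at chr1:69531214-69687245 on the minus strand. Ctla4 at chr1:60887000-60915832 and Icos at chr1:60977927-61000320 are neighbors on the plus strand, 62.09 kb apart with 0 protein-coding genes between them. Tnfrsf4 at chr4:156013843-156016612 and Tnfrsf18 at chr4:156026164-156028895 are neighbors 9.55 kb apart, also with 0 protein-coding genes between them, while Tnfrsf9 lies at chr4:150914562-150946102. The Foxp3 interval overlaps the minus-strand genes Ppp1r3f and Ccdc22 and the noncoding RNAs Flicr and Gm36995, and that of Tnfrsf9 overlaps Camta1. Per the study's methods, exons were merged into 1 feature where genes overlapped on the same strand, and each of these genes has a row of its own in the files.

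RefSeq promoter windows (GRCm38.p6, 250 bases before to 50 bases after a transcription start) were at hand for 6 of the 8 genes, in 8 windows. They are shown for the lineage factor Foxp3, for Tnfrsf9, and for the neighbors Tnfrsf4 and Tnfrsf18, because Foxp3 defines the lineage, Tnfrsf4 and Tnfrsf18 are adjacent genes detected in most T_Treg cells, and Tnfrsf9 held the most matches. Capitals mark every match, on either strand, to the NFAT core GGAAA, the AP-1 motif TGANTCA, the STAT palindrome TTCNNNGAA or the forkhead motif TGTTTAC.
Foxp3 first start (chrX:7579426-7579725, plus strand): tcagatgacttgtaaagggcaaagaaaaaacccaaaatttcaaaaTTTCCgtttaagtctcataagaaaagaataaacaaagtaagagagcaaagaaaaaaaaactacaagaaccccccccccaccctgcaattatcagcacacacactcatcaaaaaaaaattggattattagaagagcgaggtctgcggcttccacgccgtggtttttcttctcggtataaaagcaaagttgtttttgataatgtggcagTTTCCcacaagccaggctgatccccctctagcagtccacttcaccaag
Foxp3 second start (chrX:7580233-7580532, plus strand): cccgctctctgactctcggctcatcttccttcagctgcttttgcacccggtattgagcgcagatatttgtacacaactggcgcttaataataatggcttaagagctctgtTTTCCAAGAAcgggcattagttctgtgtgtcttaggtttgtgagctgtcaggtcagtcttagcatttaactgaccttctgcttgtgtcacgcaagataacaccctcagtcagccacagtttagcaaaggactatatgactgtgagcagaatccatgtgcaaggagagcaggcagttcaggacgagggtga
Tnfrsf9 second start (chr4:150927749-150928048, plus strand): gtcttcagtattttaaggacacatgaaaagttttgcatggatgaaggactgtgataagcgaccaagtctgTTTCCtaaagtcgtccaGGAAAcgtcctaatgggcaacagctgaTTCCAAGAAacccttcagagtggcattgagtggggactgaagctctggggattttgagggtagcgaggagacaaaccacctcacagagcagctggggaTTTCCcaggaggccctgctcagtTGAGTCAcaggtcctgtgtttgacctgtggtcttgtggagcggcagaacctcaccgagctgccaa
Tnfrsf4 (chr4:156013445-156013744, plus strand): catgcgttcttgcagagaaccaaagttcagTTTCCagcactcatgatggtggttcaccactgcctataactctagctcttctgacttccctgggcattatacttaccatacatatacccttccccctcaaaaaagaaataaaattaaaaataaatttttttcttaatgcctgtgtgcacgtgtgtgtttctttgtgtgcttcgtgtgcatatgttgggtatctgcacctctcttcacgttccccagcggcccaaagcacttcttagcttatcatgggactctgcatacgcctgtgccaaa
Tnfrsf18 (chr4:156026072-156026371, plus strand): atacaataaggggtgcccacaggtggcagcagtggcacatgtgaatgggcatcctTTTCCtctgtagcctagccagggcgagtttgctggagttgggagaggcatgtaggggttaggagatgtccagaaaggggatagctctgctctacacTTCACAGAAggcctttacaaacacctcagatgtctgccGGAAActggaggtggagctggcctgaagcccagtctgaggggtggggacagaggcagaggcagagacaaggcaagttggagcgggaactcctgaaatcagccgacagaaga
The NFAT core was present in all 8 windows of the 6 genes, and in 61.3% of the 32851 mouse promoters of the same length. The STAT palindrome, a motif of factors that act downstream of interleukin-2, was found in 3 of the 8 windows (the second of Foxp3, the second of Tnfrsf9 and that of Tnfrsf18) and in 8.30% of all promoters. In the second Foxp3 window it overlapped an NFAT core, which shares its first bases. The AP-1 motif was found in 1 window, the second of Tnfrsf9, against 7.81% of all promoters, and the forkhead motif, found in 3.65% of all promoters, in 0 of the 8. These matches describe letters in a window, not binding.

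The label T_Treg was checked against fixed T cell markers. A UMI of CD3 or of a T cell receptor constant gene was found in 92.2% of its cells, and Cd4 stood at 488 ± 202 CPM (SD, n = 11 samples). All 8 T cell markers were detected, the CD8 genes Cd8a and Cd8b1 among them, so this count does not set CD4 and CD8 T cells apart. Of the 6 gamma-delta and type 17 markers, 5 were at 0 and the sixth had 1 UMI, and 3 of 5 NK markers were at 0. All 25 genes of a list of other Treg-associated genes were detected in it, among them the inhibitory receptor Tigit at 551 ± 415 CPM and the chemokine receptor Ccr8 at 309 ± 231 CPM. Detected here means at least 1 UMI in the whole label, which the myeloid markers below also met, so the count alone does not set the label apart. Markers of other cells were not all absent: all 6 myeloid markers had UMIs, with a median sum of 244 CPM over the 11 samples, as did 5 of 8 group 2 innate lymphoid cell (ILC2) markers (median 332 CPM) and 3 of 4 B cell markers (median 305 CPM, Cd79a at 0). The ILC2 markers Gata3, Il1rl1 and Areg are also in the list of Treg-associated genes, so their UMIs count in both. The labels come from clusters of the same expression values, so differences between labels are given as descriptions with no test.

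All 8 genes had their highest mean level of the 7 T labels in T_Treg, but they differed in how far this label stood apart. Tnfrsf4 ranged from 1984 to 4126 CPM with a median of 2590 over the 11 T_Treg samples of 5 or more cells. It was the only gene of the 8 whose range in T_Treg did not overlap that of the next label, T_CD8_Lag3, at 302 ± 469 CPM (SD, n = 23). In the other 5 labels its mean lay between 1.37 CPM in T_CD8_Gzma and 66.2 CPM in T_CD4_S100a4.

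Tnfrsf18 ranged from 2140 to 4379 CPM in T_Treg with a median of 2652. Its next label was T_CD4_S100a4 at 719 ± 566 CPM (SD, n = 39), and the lowest label mean was 105 CPM in T_CD8_Gzma. The gene was therefore found in all T labels, and outside T cells as well: 72.6% of its immune UMIs were in T cells and 16.2% in NK cells.

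Tnfrsf9 ranged from 471 to 2397 CPM in T_Treg with a median of 1524. T_CD8_Lag3 followed at 720 ± 618 CPM (SD, n = 23), and a drop beyond the spread came before the next label, T_CD4_S100a4 at 78.7 CPM. The T_CD8_Lag3 cells are called dysfunctional CD8 T cells by the study. NK cells held 30.5% of all immune Tnfrsf9 UMIs, more than the 25.4% in T_Treg. They numbered 2510 cells with a pooled level of 202 CPM, against 206 T_Treg cells with 1265 CPM.

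Ikzf2 ranged from 0 to 2839 CPM in T_Treg with a median of 1430, ahead of T_CD4_S100a4 at 315 ± 690 CPM (SD, n = 39), where the spread was wider than the mean. Icos ranged from 0 to 1380 CPM with a median of 1063, ahead of T_CD4_S100a4 at 439 ± 387 and T_CD8_Lag3 at 309 CPM. Ctla4 ranged from 0 to 863 CPM with a median of 427, ahead of T_CD4_S100a4 at 128 ± 159 and T_CD8_Lag3 at 111 CPM. For these 3 genes, as for the 3 receptors above, the step from T_Treg to the next label was larger than the SD of either label. The T_Treg samples came from Primary, MET, MET Core and MET Invasive margin alone, while other labels also had samples of other lung tissues. Label and tissue are thus mixed in these means. Within Primary the mean of Ikzf2 was 1826 CPM in T_CD4_S100a4 and 2057 ± 664 CPM in T_Treg (SD, n = 4).

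Foxp3 and Il2ra were sparse even where they were highest. Foxp3 ranged from 0 to 2480 CPM in T_Treg with a median of 262 and a mean of 502 ± 688 (SD, n = 11), and the next label, T_CD4_S100a4, had 30.2 CPM. Il2ra ranged from 0 to 668 CPM with a median of 290 and a mean of 239 ± 190, and T_CD4_S100a4 followed at 155 ± 287. For neither gene did the step to the next label exceed the larger SD. The highest Foxp3 value was that of MET mouse 31, where 5 T_Treg cells held 30 Foxp3 UMIs and 1 of them 18, which is 11.0% of the Foxp3 UMIs of the label.

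Below T_Treg, neighboring labels did not differ beyond their spread for any of the 8 genes, except for the step of Tnfrsf9 from T_CD8_Lag3 to T_CD4_S100a4. T_CD8_Gzma was the lowest label for Il2ra, Ctla4, Tnfrsf4, Tnfrsf9, Tnfrsf18 and Icos, and its Foxp3 was at 0 in all 16 samples. T_CD8_Dapl1, which the study calls naive CD8 T cells, was lowest for Ikzf2.

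**Figure D1:**
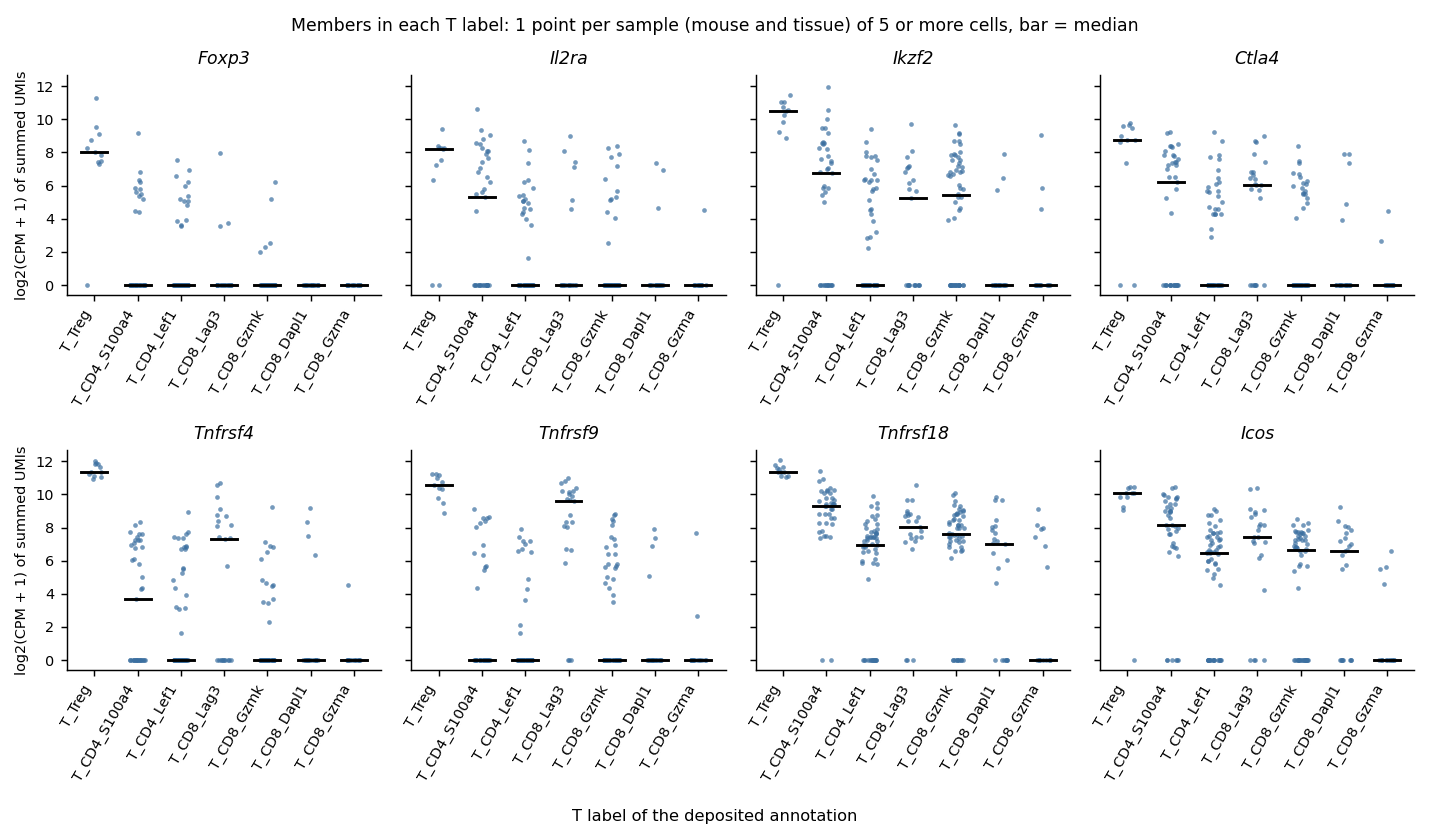
Level of each of the 8 genes, as log2(CPM + 1) of summed UMIs, in the 7 T labels; each point is 1 sample (mouse and tissue) with 5 or more cells of that label and each bar the median. T_Treg is highest throughout, the T_Treg points of Tnfrsf4 lie above those of all other labels, and those of Tnfrsf9 overlap T_CD8_Lag3.

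The share of T_Treg cells with a UMI was 81.1% for Tnfrsf4 (exact 95% binomial interval 75.0 to 86.2% of 206 cells), 71.8% for Tnfrsf18, 53.4% for Ikzf2, 51.9% for Tnfrsf9, 47.1% for Icos and 36.4% for Ctla4. Foxp3 was detected in 26.2% (20.3 to 32.8%) and Il2ra in 22.8% (17.3 to 29.2%) of the T_Treg cells, at a median depth of 1495.5 UMIs. Most cells of the label thus gave no Foxp3 UMI, and most gave no Il2ra UMI.

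In B cells, macrophages, monocytes and neutrophils together, 13126 cells with a median of 1234 UMIs, the shares were 0.0686% for Foxp3, 0.0914% for Il2ra and at most 1.36% for the others, the latter for Tnfrsf18. Over the 6 other T labels the highest share of Foxp3 was 1.77%, of Il2ra 6.42% and of Ikzf2 8.64%, all in T_CD4_S100a4, and that of Tnfrsf9 33.4% in T_CD8_Lag3. These intervals cover counting error only. When every cell was thinned to 500 UMIs, the shares in T_Treg were 64.6% for Tnfrsf4, 11.4% for Foxp3 and 11.1% for Il2ra.

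**Figure D2:**
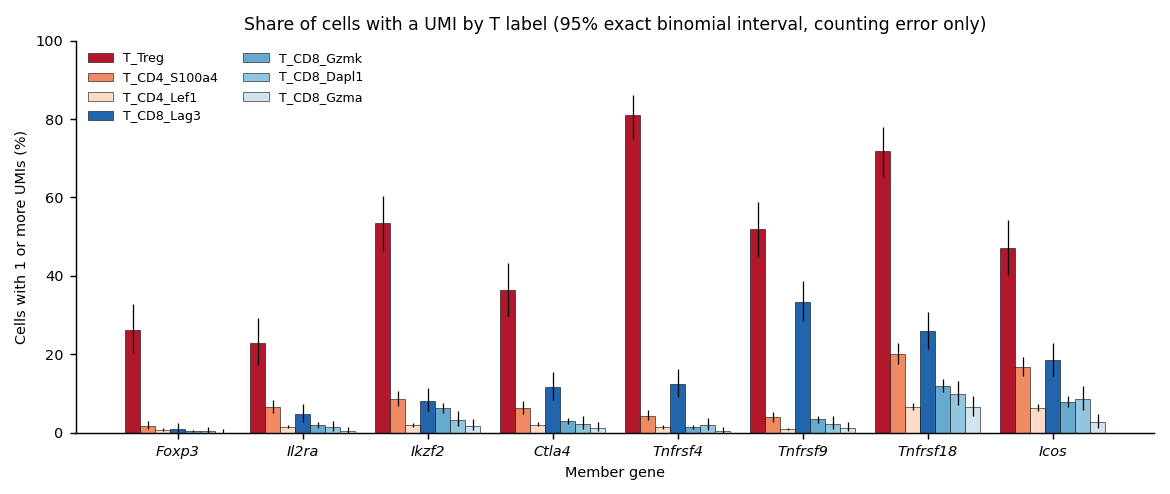
Share of cells with 1 or more UMIs of each gene (percent) in the 7 T labels, as bars from 0 with exact 95% binomial intervals over cells. Tnfrsf4 is detected in 81.1% and Foxp3 in 26.2% of the 206 T_Treg cells, and T_CD8_Lag3 reaches 33.4% for Tnfrsf9.

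Foxp3 was the gene most confined to T cells: of its 270 UMIs in immune cells 95.2% were in T cells and 60.7% in T_Treg. Tnfrsf4 had 89.4% in T cells and, with 66.4%, the largest share of the 8 genes in T_Treg. Il2ra, by contrast, had 86.9% of its UMIs in T cells but 20.3% in T_Treg, with a further 7.87% in dendritic cells. Icos had 92.6% in T cells and 19.5% in T_Treg, and Ctla4 92.5% and 31.8%.

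Within single cells, more of the 8 genes were detected per cell in T_Treg than in the other T labels. The mean number per cell is the sum of the shares of the single genes. It therefore does not show that the genes occur together in the same cells, which was not tested. A T_Treg cell had UMIs of 3.91 of the 8 genes on average, none of the 206 had 0, and 54.4% had 4 or more. The mean was 1.15 in T_CD8_Lag3, 0.681 in T_CD4_S100a4 and between 0.133 and 0.355 in the other 4 labels. With all cells thinned to 500 UMIs the means were 2.62 in T_Treg and 0.630 in T_CD8_Lag3.

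T_Treg cells with and without a Foxp3 UMI shared the rest of the list. The 54 cells with one had 4.67 of the 7 other genes and a median of 2448.5 UMIs, and the 152 cells without had 3.28 and a median of 1246 UMIs. Tnfrsf4 was detected in 85.2% of the former and 79.6% of the latter, and Il2ra in 38.9% and 17.1%, a difference that the gap in depth accompanies. Outside T_Treg, 47 T cells had a Foxp3 UMI, 22 of them in T_CD4_Lef1 and 16 in T_CD4_S100a4. Their mean was 2.19 of the other genes, against 0.340 in the 6593 T cells without Foxp3 UMI outside the label, at medians of 1497 and 983 UMIs.

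T_CD4_S100a4, the label next to T_Treg for 6 of the 8 genes, held cells with markers of another cell type. Group 2 innate lymphoid cells (ILC2s) resemble helper T cells but lack a T cell receptor. In this label 46 of 903 cells (5.09%) had 2 or more of 8 ILC2 markers, and 45.7% of those 46 had a CD3 or T cell receptor UMI. T_Treg had a like share, 10 of 206 cells (4.85%), all with a CD3 or T cell receptor UMI, and 28.2% of its cells had 1 such marker against 13.5%. The pooled level of Tnfrsf18 was 2625 CPM in these cells, 816 in the 122 cells with 1 marker and 569 in the 735 cells with none. That of Il2ra was 510, 85.6 and 99.0 CPM in the same order, and that of Icos 733, 892 and 352. Ikzf2 (380, 284 and 345 CPM) and Tnfrsf4 (111, 122 and 54.1 CPM) differed less, and Ctla4 (102, 234 and 112 CPM) and Tnfrsf9 (64.9, 270 and 61.2 CPM) were highest in the cells with 1 marker. Of the 46 cells, 25 had no CD3 or T cell receptor UMI. In these 25, Ikzf2 had 0 UMIs and Icos stood at 231 CPM, while Tnfrsf18 was at 3737 CPM and Il2ra at 600 CPM. Foxp3 had 0 UMIs in the 46 cells, too few cells to tell this from the 17.3 CPM of the unmarked cells, and 17 UMIs (76.6 CPM) in the cells with 1 marker. The part of these cells in the level of the label was not tested.

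The tissues differed first in the number of T_Treg cells. Primary had 81 such cells among 404 T cells (20.05%), MET Core 70 among 1220 (5.74%), MET Invasive margin 21 among 508 (4.13%) and MET 25 among 668 (3.74%). These shares pool mice: 15 of the 21 margin cells came from mouse 36, and without it the margin had 6 among 332 (1.81%), below MET. Relapse-free lungs had 5 among 2130 T cells, Pre-MET 2 among 290, Normal 1 among 818 and Distal normal tissue 1 among 808. A sum over all T cells of a sample therefore moves both with the number of T_Treg cells and with the level per cell, and the comparisons below were also made within T_Treg and outside it where enough cells remained.

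In all T cells, the 4 primary tumors had the highest median of the 8 tissues for each of the 8 genes. Ikzf2 was at 799, 778, 913 and 1099 CPM in mice 10, 38, 8 and 9, and ranged from 44.6 to 426 CPM with a median of 143 in the 13 MET Core samples. The groups did not overlap. Tnfrsf4 was at 746, 591, 1536 and 589 CPM in the same tumors and ranged from 52.6 to 647 with a median of 349 in MET Core, so 2 tumors lay within the MET Core range.

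Il2ra was at 135, 131, 176 and 147 CPM in the tumors, and from 0 to 112.5 CPM with a median of 0 in MET Core. Icos was at 586, 414, 430 and 627 CPM against 0 to 315 CPM with a median of 198. For both genes all tumors were above all MET Core samples. Ctla4 was at 235, 213, 290 and 185 CPM against 0 to 255 with a median of 63.0, and Tnfrsf18 at 1028, 813, 1668 and 901 against 113 to 848 with a median of 358, with overlap in both.

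Tnfrsf9 was at 636, 326, 702 and 286 CPM in the tumors against 130 to 786 CPM with a median of 363 in MET Core, and the ranges overlapped. Foxp3 was at 47.0, 75.3, 70.2 and 139 CPM against 0 to 277 with a median of 17.9, and the highest value belonged to a MET Core sample.

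**Figure D3:**
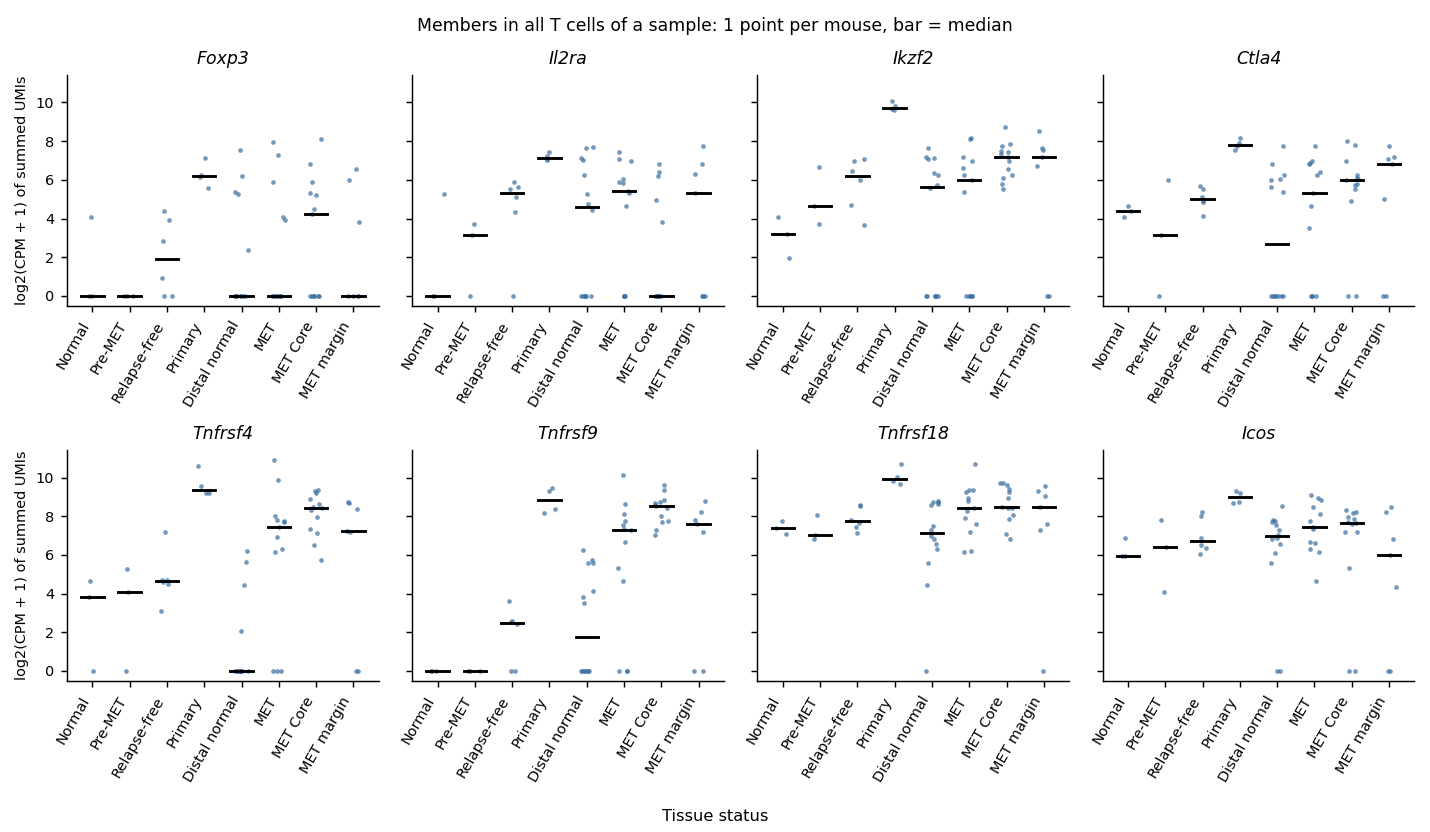
Level of each of the 8 genes in all T cells of a sample, as log2(CPM + 1) of summed UMIs, for the 8 tissues; each point is 1 mouse and each bar the median. Primary (4 mice, 778 to 1099 CPM) lies above all other tissues for Ikzf2, and Tnfrsf9 has 0 UMIs in all Normal and Pre-MET samples.

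Primary and MET Core were compared to ask how Treg genes differ between primary tumors and the center of lung metastases; no mouse gave both tissues. Of the 7 genes that passed the filter on low counts, Ikzf2 and Tnfrsf4 were higher in Primary at an adjusted p below 0.05 in edgeR's quasi-likelihood test of 4 against 13 samples. The log2 fold change was 2.78 ± 0.32 (SE, adjusted p = 1.50e-06) for Ikzf2 and 1.503 ± 0.36 (adjusted p = 0.0347) for Tnfrsf4. Among all 2197 genes tested 13 were called (0.592%, 8 higher and 5 lower in Primary).

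The other genes did not pass in this test. Il2ra had a log2 fold change of 2.33 ± 0.65 (adjusted p = 0.0574), Icos 1.56 ± 0.40 (adjusted p = 0.0515), Ctla4 1.598 ± 0.48 (adjusted p = 0.0762) and Tnfrsf18 1.28 ± 0.36 (adjusted p = 0.0574). All 4 had an adjusted p below 0.05 in DESeq2 on the same sums, where DESeq2 called 98 genes in all. Tnfrsf9 had 0.58 ± 0.35 (adjusted p = 0.464), and Foxp3 fell under the filter. The median log2 fold change of the 7 genes was 1.56, against 0.06 over all genes tested. Il2ra and Ctla4 passed the filter through Primary, as too few MET Core samples reached its cutoff. This ties their direction to the filter, so the median is no support of its own.

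The call of Tnfrsf4 was lost without any 1 of the 4 tumors (log2 fold change 1.12 to 1.62, adjusted p from 0.0640 to 0.149), among cells of 1000 or more UMIs (1.15, adjusted p = 0.244), in 1 fit of all 8 tissues (1.57, adjusted p = 0.079) and with the sequencing batch as a covariate (2.35, adjusted p = 0.233). The call of Ikzf2 was lost with the batch covariate alone (2.603, adjusted p = 0.179). One batch held both tissues, with 1 tumor and 2 MET Core samples. There Ikzf2 was at 913 CPM in the tumor and 127 on average in MET Core (181 and 74.3 in the 2 samples), and Tnfrsf4 at 1536 and 285. Of 6 myeloid markers 3 were tested and 1 was called, against 0.592% of all genes: the neutrophil gene S100a8 was lower in Primary (log2 fold change -4.15 ± 0.94, adjusted p = 0.0202), while S100a9 had an adjusted p of 0.0805 and Lyz2 a log2 fold change of 0.47 (adjusted p = 0.705). The sum of the 6 myeloid markers was at 224 to 413 CPM in Primary T cells and 107 to 2498 in MET Core, and its part in the result was not tested.

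Within T_Treg, 4 samples of each tissue had 5 or more cells, and 0 of 7 tested genes were called (2 of 752 genes in all, 0.266%, with 74 at an unadjusted p under 0.05 in edgeR and 3 called by DESeq2). Ctla4 was at 863, 765, 810 and 725 CPM in the T_Treg cells of tumor mice 10, 38, 8 and 9, and at 422, 0, 0 and 512 CPM in those of MET Core mice 17, 25, 30 and 36. Every tumor was above every MET Core sample, but the log2 fold change of 1.38 ± 0.69 had an adjusted p of 0.518. Icos was at 1063 to 1380 CPM against 0 to 930 CPM, also without overlap (1.16 ± 0.60, adjusted p = 0.521). Ctla4, Icos, Ikzf2 and Il2ra passed the filter within T_Treg through Primary, as too few MET Core samples reached its cutoff. This ties the direction of these genes to the filter, so it is no support of its own.

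Ikzf2 in T_Treg was at 2092, 2083, 1215 and 2839 CPM in the tumors and 594, 0, 471 and 1535 in MET Core (1.47 ± 0.61, adjusted p = 0.462), with overlap. With the batch covariate the log2 fold changes within T_Treg turned to -0.64 for Ikzf2 and -0.11 for Icos. Il2ra was at 290 to 668 CPM against 0 to 313 (1.09 ± 0.71). The receptors Tnfrsf4 and Tnfrsf18 had nearly equal T_Treg levels in both tissues, 3126 ± 928 against 2857 ± 661 CPM and 3068 ± 939 against 2486 ± 401 CPM (SD, n = 4 each), with log2 fold changes of 0.13 ± 0.39 and 0.29 ± 0.39. Foxp3 in T_Treg was at 173, 262, 177 and 559 CPM in the tumors and 313, 0, 157 and 233 in MET Core. MET Core mouse 25, with 7 T_Treg cells and 8441 UMIs, was at 0 for Foxp3, Il2ra, Ikzf2 and Ctla4 while Tnfrsf4 stood at 3199 CPM, and at this depth a level under the 3 counts of the floor could not be seen.

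Outside T_Treg, Ikzf2 was again higher in the tumors. It was at 579, 391, 752 and 655 CPM in the T cells without T_Treg of tumor mice 10, 38, 8 and 9, and from 0 to 187 CPM with a median of 78.0 in MET Core, without overlap. The log2 fold change was 2.83 ± 0.39 (adjusted p = 5.91e-05), and 14 of 1633 genes were called in this comparison (0.857%). Ikzf2 passed the filter here through Primary, as too few MET Core samples reached its cutoff. This ties the direction of the Ikzf2 call to the filter, so the call is no support of its own. Of the 5 genes tested it was the only one called. Tnfrsf4 had 0.52 ± 0.49, Tnfrsf18 0.41 ± 0.47, Icos 0.92 ± 0.47 (adjusted p = 0.336) and Tnfrsf9 -0.26 ± 0.49. With the batch covariate Tnfrsf18 turned to -1.68 and Icos to -1.79. The call of Ikzf2 was lost with the batch covariate (3.26, adjusted p = 0.154) and kept without any 1 tumor and without cells of 10000 or more UMIs. Among cells of 1000 or more UMIs Ikzf2 fell under the filter.

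By label, Ikzf2 in T_CD4_S100a4 was at 1826 ± 1503 CPM in Primary (SD, n = 4, 714 to 4024) and 143 ± 122 in MET Core (n = 7, 0 to 378), without overlap. The 4024 CPM were those of mouse 8, with 9 cells and 50 Ikzf2 UMIs, and the mean of the other tumors was 1093 CPM. T_CD8_Gzmk had 480 ± 342 CPM in Primary (n = 4) and 119 ± 127 in MET Core (n = 12), and T_CD4_Lef1 152 ± 99.8 and 35.4 ± 50.6. The ranges overlapped in both of these labels, and tumor mouse 8 had no Ikzf2 UMI in T_CD8_Gzmk. Of the 87 T_CD4_S100a4 cells of Primary, 28 had an Ikzf2 UMI (32.2%, exact interval 22.6 to 43.1%), of 131 in MET Core 14 (10.7%, 5.97 to 17.3%), and the shares thinned to 500 UMIs were 21.9% and 5.85%. These shares pool the cells of all mice, so their intervals leave out the spread between mice and are no test of the tissues. In Primary, 154 of the 259 Ikzf2 UMIs of this label were in its 48 cells without a CD3 or T cell receptor UMI, and 44 in 1 cell, whereas in T_CD8_Gzmk 125 of 137 were in cells with such a UMI. In MET Core, 27 of the 131 T_CD4_S100a4 cells lacked such a UMI. Over the T_CD4_S100a4 cells with one, pooled Ikzf2 was at 745 CPM in Primary and 231 CPM in MET Core, and the thinned shares were 15.9% and 5.88%. NK markers in Primary T_CD4_S100a4 had a median of 118 CPM against 0 in MET Core, the sum of ILC2 markers 414 against 150, and their part in the result was not tested.

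Whether the difference between tissues depended on the T_Treg label was tested by an interaction in edgeR over 25 sums, which called 0 of the 8 genes among 2 of 1845 (102 at an unadjusted p under 0.05). The interaction was 1.57 ± 0.95 for Ctla4 and -1.08 ± 0.69 for Ikzf2 (log2, adjusted p = 0.884 for both). This fit held no term for the sample, although each T_Treg sum shares its mouse and tissue with a sum of other T cells. With mouse and tissue as a block, over 16 sums in edgeR, Ctla4 had 2.34 ± 0.96 (adjusted p = 0.870) and Ikzf2 -0.89 ± 0.61 (adjusted p = 0.972). A difference in the response of T_Treg and other T cells was therefore not shown for any of the 8 genes.

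**Figure D4:**
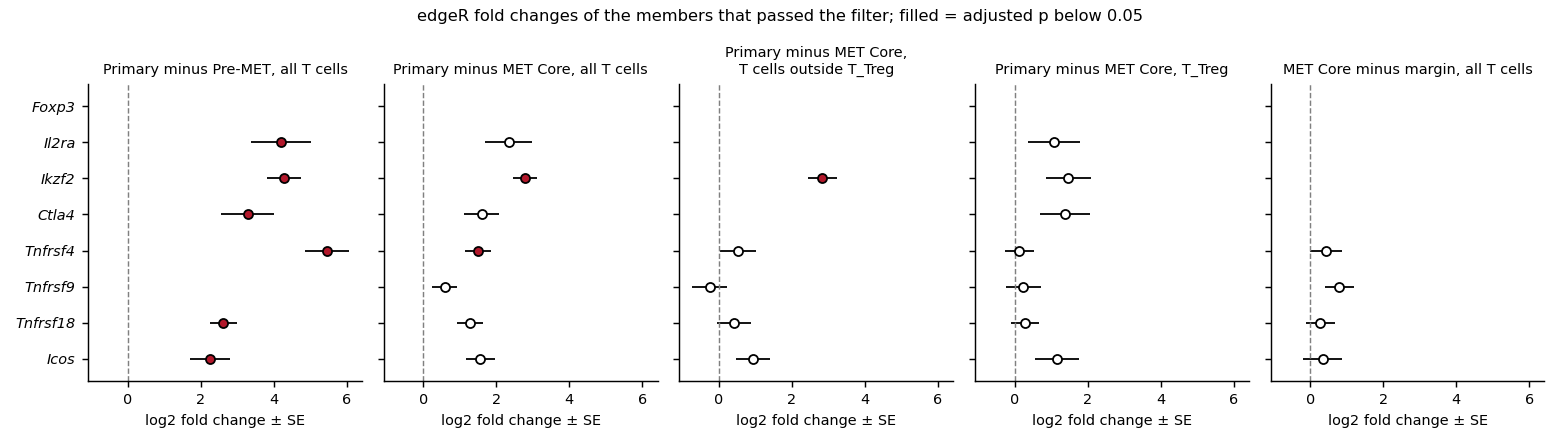
Log2 fold changes with standard errors from edgeR in 5 comparisons, for the genes that passed the filter; filled points have an adjusted p below 0.05 and the dashed line marks 0. Ikzf2 is filled in Primary minus Pre-MET and in Primary minus MET Core both with and without the T_Treg cells, and no gene is filled within T_Treg or in MET Core minus margin; Tnfrsf9 is left out of the first panel because all Pre-MET samples were at 0.

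Primary tumors were also compared with the lungs of tumor-bearing mice before resection, of which mice 8, 9 and 10 gave both tissues. These comparisons share the Primary samples with those above. In Pre-MET T cells Foxp3 and Tnfrsf9 had 0 UMIs in all 3 mice, Ikzf2 was at 98.8, 11.9 and 24.0 CPM in mice 10, 8 and 9, Tnfrsf4 at 37.1, 0 and 16 and Il2ra at 12.4, 0 and 8.00. Ctla4 was at 61.8, 0 and 8.00, Icos at 222, 83.4 and 16 and Tnfrsf18 at 111, 262 and 128 CPM. For all 8 genes each tumor lay above each Pre-MET lung.

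All 7 genes tested were called higher in Primary, in a comparison where 664 of 2692 genes (24.7%) were called, 260 of them higher (9.66% of those tested) and 404 lower (15%) in Primary. Tnfrsf9, Il2ra, Tnfrsf4, Ctla4, Ikzf2 and Icos had 0, 2, 5, 6, 12 and 27 UMIs in Pre-MET and passed the filter through Primary. This ties the direction of a call to the filter, so the count of called genes is no support of its own. The log2 fold changes were 5.47 ± 0.61 for Tnfrsf4 (adjusted p = 1.11e-05), 4.28 ± 0.47 for Ikzf2 (adjusted p = 9.42e-06), 4.19 ± 0.82 for Il2ra (adjusted p = 0.00136) and 3.28 ± 0.73 for Ctla4 (adjusted p = 0.00364). Tnfrsf18 had 2.62 ± 0.36 and Icos 2.26 ± 0.54, the genes with the highest levels in Pre-MET lungs.

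For genes at 0 in Pre-MET only a bound can be given. Tnfrsf9 (adjusted p = 2.33e-05) was at least 42.9-fold higher and Foxp3, which fell under the filter, at least 7.75-fold higher, from the UMIs pooled over the 4 tumors against a floor of 3 counts over the 3 lungs, 10.3 CPM. With 0 of 290 Pre-MET T cells, the share of cells with a Foxp3 UMI could be up to 1.03%, a limit on detection and not on cells that express the gene. With mouse as a block 488 genes were called, and the adjusted p of the 7 genes lay between 0.000107 and 0.0123, under the same limit of the filter. No batch held both tissues, so batch and tissue cannot be told apart here. Myeloid markers were lower in Primary, 3 of 3 tested, led by S100a8 (-5.30 ± 0.45), with sums of 224 to 413 CPM against 1394 to 1560 CPM in Pre-MET, and their part in the result was not tested.

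Of 11 genes for receptor subunits and signalling, 6 were tested and 4 were higher in Primary, against 9.66% of all genes: the interleukin-2 receptor beta chain Il2rb (2.21 ± 0.42), the common gamma chain Il2rg (1.83 ± 0.28), Cish, a target and inhibitor of STAT5 signalling (3.47 ± 0.75), and Traf1, an adaptor of tumor necrosis factor receptors (1.77 ± 0.57). The kinase gene Jak1 (-0.65, adjusted p = 0.156) and the costimulatory receptor gene Cd28 (0.46, adjusted p = 0.612) did not pass. Of 25 other Treg-associated genes 7 were tested and 3 were higher, against the same 9.66%, the actin-capping gene Capg (4.26 ± 0.50), the transcription factor gene Maf (1.86 ± 0.61) and Tigit, at least 13.7-fold. Tigit had 0 UMIs in Pre-MET and passed the filter through Primary, so it could be called in that direction alone. Cish, Traf1 and Capg fell under the filter in the comparison of Normal with Pre-MET and passed it here through Primary as well. This ties their direction to the filter, so the counts of both lists are no support of their own. Of 8 genes known to be low in Tregs, 7 were tested and 1 fell, Lef1 (-1.25 ± 0.38), a share near the 15% of all genes. In the comparison of Primary with MET Core, 0 of 6 tested partners, 0 of 6 tested Treg-associated genes and 0 of 6 tested genes low in Tregs passed, where 0.592% of all genes did. With an unadjusted p under 0.05 in 349 of 2197 genes, the nearest was Maf (1.74 ± 0.46, adjusted p = 0.0515).

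In the metastatic lung, sections with a metastasis were compared with distal sections, 13 of the mice giving both. Tnfrsf4 ranged from 0 to 1911 CPM with a median of 175 in the T cells of 13 MET samples and from 0 to 72.7 CPM with a median of 0 in 14 Distal normal tissue samples, where 10 had no UMI. Tnfrsf9 ranged from 0 to 1107 CPM with a median of 156 against 0 to 76.4 with a median of 5.27. A Tnfrsf4 UMI was thus found in 10 of 13 MET and 4 of 14 distal samples, and a Tnfrsf9 UMI in 10 and 7.

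The libraries of this comparison were as small as 4456 UMIs, the filter left 380 genes, and 0 of the 8 genes passed it. Of the 380 genes 0 were called (0%) by edgeR, 17 had an unadjusted p under 0.05, and DESeq2 called 1. Without the filter, Tnfrsf4 had a log2 fold change of 4.03 ± 0.65 (adjusted p = 0.000176) and Tnfrsf9 of 3.02 ± 0.61 (adjusted p = 0.0100), 2 of the 7 calls among 19754 genes. Both were also called in 1 fit over all 8 tissues (adjusted p = 1.61e-05 and 0.000410). Neither fit held a term for the mouse, although 13 mice gave both tissues, and no fit without the filter was made with mouse as a block.

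Within batches Tnfrsf4 was at 634 CPM on average in 5 MET samples and 13.4 in 7 distal ones, at 224 in 4 and 1.58 in 2, and at 0 in the 2 and 4 samples of the remaining batch that held both. In the first batch the MET mean fell to 315 without mouse 23, a library of 7326 UMIs with 14 of Tnfrsf4, and the distal mean to 3.50 without the same mouse. Tnfrsf9 was at 316 and 1.85, at 210 and 31.7, and at 109 and 42.3 CPM in the same order. Its 316 CPM fell to 118 without mouse 26, which had 13 Tnfrsf9 UMIs, and its 109 CPM rested on 1 of 2 samples. Ikzf2 and Icos had medians of 63.3 and 170 CPM in MET and 49.1 and 123 in distal tissue, with wide overlap, and Tnfrsf18 had 341 and 139 CPM. Foxp3 had no UMI in 8 of 13 MET and 9 of 14 distal samples.

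With T_Treg cells taken out, Tnfrsf4 had a median of 5.70 CPM in MET and 0 in distal tissue, and Tnfrsf9 28.5 and 5.27. Again 0 of 8 genes passed the filter, 0 of 379 genes were called (0%) by edgeR, 16 had an unadjusted p under 0.05 and DESeq2 called 0. The unfiltered log2 fold changes were 2.11 ± 0.80 for Tnfrsf4 (adjusted p = 0.267) and 2.22 ± 0.68 for Tnfrsf9 (adjusted p = 0.107). The comparison within T_Treg could not be fitted, since distal tissue held 1 such cell.

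MET Core and MET Invasive margin were compared to ask whether Treg genes follow the position within a metastasis. Tnfrsf9 ranged from 130 to 786 CPM with a median of 363 in MET Core and from 0 to 435 with a median of 193 in 7 margin samples. Tnfrsf4 had medians of 349 and 152, Tnfrsf18 of 358 and 350, and Icos of 198 and 62.1 CPM, all with overlapping ranges.

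Of the 4 genes that passed the filter 0 were called, as were 0 of all 1037 genes (0%) in edgeR and in DESeq2, with 21 at an unadjusted p under 0.05. The log2 fold changes, MET Core over margin, were 0.80 ± 0.40 for Tnfrsf9 (unadjusted p = 0.0546), 0.43 ± 0.43 for Tnfrsf4, 0.33 ± 0.53 for Icos and 0.28 ± 0.40 for Tnfrsf18. Among cells of 1000 or more UMIs the last 3 changed sign, to -0.053, -0.14 and -0.38 for Tnfrsf4, Icos and Tnfrsf18. The 7 margin samples share that status in their labels, but a second label reads NON-MET for the margin plates of mouse 17 and ADJ for those of all others. This sample held 173 of the 508 margin T cells, and without it the log2 fold changes were 0.70 for Tnfrsf9 and 0.31 for Tnfrsf4, with 0 genes called by edgeR. Within the 4 batches that held both, Tnfrsf9 was at 255, 392, 388 and 445 CPM in MET Core and at 146, 96.6, 243 and 222 in margin, and Tnfrsf4 at 393, 395, 167 and 285 against 152, 213, 183 and 329. Tnfrsf9 was higher in MET Core in each batch and Tnfrsf4 in the first 2 of them, and the margin sample of mouse 17 is the margin value of the first. Mice 17, 26, 28, 31, 32 and 36 gave both tissues. Their Tnfrsf9 was at 255, 378, 210, 645, 158 and 431 CPM in MET Core. In margin it was at 146, 0, 193, 435, 0 and 222, where mice 26 and 32 had 20 and 6 T cells. The unadjusted p above is from a fit without a term for the mouse. The margin means of the batches rest on 1, 2, 3 and 1 samples. In the 2 of the second batch Tnfrsf4 was at 0 and 425 CPM and Tnfrsf9 at 0 and 193. Without mouse 31 the third batch fell to 71.7 CPM in MET Core and 73.2 in margin for Tnfrsf4. For Tnfrsf9 it fell to 260 and 146.

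Normal and Pre-MET lungs were compared to ask how lung T cells differ between tumor-bearing and control mice; no batch held both. In 3 Normal lungs Foxp3 had 5 UMIs, all in mouse 1, Tnfrsf9 had 0, and Tnfrsf18 was at 132, 213 and 167 CPM in mice 1, 2 and 3. Of 8 genes 2 passed the filter and 0 were called, Tnfrsf18 at -0.03 ± 0.40 and Icos at 0.39 ± 0.73 (log2, Pre-MET over Normal), where 56 of 3218 genes were called (1.74%). Relapse-free lungs also had low levels in 6 mice, with Foxp3 from 0 to 20.3 CPM, Tnfrsf9 from 0 to 11.3 and Tnfrsf18 from 141 to 376 CPM.

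Foxp3 was too sparse for the gene-wise test, so the share of T cells with a Foxp3 UMI at 500 UMIs per cell was compared over samples. It was 3.38 ± 1.27% in Primary (SD, n = 4, 2.19 to 5.16%) and 1.11 ± 1.32% in MET Core (n = 13, above 0 in 7). The difference of 2.27 percentage points had an exact two-sided permutation p of 0.0134, which became 0.0672 after adjustment over the 5 comparisons. Without thinning the difference was 8.00 points (adjusted exact permutation p = 0.00420, raw p at the smallest value 4 against 13 samples allow), with the deeper cells of Primary in it. In cells of 1000 or more UMIs, thinned alike, it was 1.41 points (exact permutation p = 0.515).

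In metastatic and normal lungs the Foxp3 shares differed by less than their spread. The share was 0.658% in MET and 0.634% in Distal normal tissue (permutation p = 0.956), and 1.11% in MET Core and 0.620% in MET Invasive margin (permutation p = 0.398). Pre-MET was at 0 and Normal at 0.170% (exact permutation p = 1, smallest possible 0.1). Primary and Pre-MET did not overlap: the tumors of mice 10, 38, 8 and 9 were at 2.19, 3.32, 2.87 and 5.16% and all 3 lungs at 0. The difference of the means, 3.38 points, had an exact permutation p of 0.0571, the smallest that 4 against 3 samples allow.

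The ligands were highest on average in labels other than T_Treg, where 6 of the 7 were detected with 36 UMIs in all. Tnfsf4, the OX40 ligand, was highest in the dendritic cell label DC_migDC (53.8 ± 58.0 CPM, SD, n = 8) followed by T_CD8_Lag3 (25.1 CPM) and T_Treg (16.1 CPM). The T_Treg value rested on 3 UMIs, and its pooled level of 6.27 CPM was below the 14.6 CPM of NK_Xcl1. Tnfsf9, the 4-1BB ligand, was highest in Mac_Isg20 macrophages (74.6 ± 73.1 CPM, n = 24), as was Cd86 by the mean over samples (245 ± 381 CPM), although its pooled level was 196 CPM there and 203 in DC_cDC2, while Cd80 was highest in Neut_PMN-MDSC (164 ± 271 CPM, n = 10). Icosl had 29.9 CPM in DC_migDC and 29.5 CPM in B cells. The GITR ligand Tnfsf18 had 3 UMIs in all 23425 immune cells. Il2 itself was highest in T_CD4_S100a4 (52.6 ± 103 CPM, n = 39) and had 5 UMIs in all T_Treg cells.

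Across the 27 immune labels, the genes most like the 8 in their mean level were named by Pearson's r of log2(mean CPM + 1) over labels among 14026 genes with 100 or more UMIs, as a description, since labels share libraries and T_Treg is one point that carries much of r. The closest to Foxp3 were Igsf23 (r = 0.948), AC117245.3 (0.919) and Penk (0.905), to Ctla4 Ccr8 (0.959), and to Tnfrsf4 and Il2ra Ikzf4, the gene of the Helios relative Eos (0.913 and 0.893). Pdcd1, which encodes the inhibitory receptor PD-1, was among the 3 closest to Il2ra, Tnfrsf4 and Tnfrsf9. Penk stood at 3098 CPM on average in T_Treg. The closest to Icos was Tox (0.898), to Tnfrsf18 Tbrg1 (0.903), to Tnfrsf9 Zdhhc2 (0.874) and to Ikzf2 Tesc (0.909). Among the 8 genes themselves, r ranged from 0.640 for Foxp3 and Tnfrsf18 to 0.902 for Ikzf2 and Tnfrsf18.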

How the data were processed

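Single cells sorted from mouse lungs and tumors were profiled by SPID-seq, a plate-based method that reads transcript ends. The deposited values are UMI counts, not normalized; the authors mapped reads to mm10 with HISAT, excluded multiply mapped reads, assigned reads to UCSC exons, collapsed UMIs and discarded cells under 500 UMIs. bcl2fastq 2.15.0.4 is named in the submitters' processing notes. Cell labels are the authors' metacell annotation. Dead cells and doublets were gated out at the sort, and no further doublet removal was done here. Wells annotated as Erythrocytes (336), Outlier (165) or Tumor (94) and 128 unlabelled wells of 500 or more UMIs were left out. No well was listed on 2 plates. The 8 genes and all other gene lists were chosen with earlier results of these data known, and the genes named are the 8, up to 6 called list genes per comparison by size of change, ligands with their highest label, and similar genes among the 3 with the highest r for each of the 8. Cd4, Tigit and Ccr8 levels, Maf in Primary against MET Core and myeloid genes were named after their values were seen.

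UMIs were summed over the plates of 1 mouse and tissue and 5 or more cells of a label. Sums were tested with edgeR 4.0.16 (TMM, filterByExpr, quasi-likelihood F test, Benjamini-Hochberg over all genes kept, threshold 0.05), and, as alternatives, with DESeq2 1.42.0 and the settings described at the end. Foxp3 shares were compared by exact permutation (scipy 1.17.1), or 100000 resamples where both groups had 10 or more samples. Scripts were tested on simulated counts. Mice are the replicates. Samples of different tissues pair by mouse per the labels; the correlation of deviations within a mouse was -0.254 to 0.657 (median 0.211, 13 mice) for MET and Distal normal tissue, 0.0956 to 0.787 (6 mice) for MET Core and MET Invasive margin, and -0.0206 to 0.0783 (3 mice) for Primary and Pre-MET.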

Additional observations from a re-analysis of the deposited data

Results flagged for a closer look

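Of 40 groups of 4 to 10 samples examined for a value far from the rest, 3 were picked out, where chance gives about 1 in 20. Tnfrsf4 in T cells of Relapse-free mouse 29 stood at 143.5 CPM, with the next of 6 mice at 25.4. Tnfrsf4 in T cells of Primary mouse 8 stood at 1536 CPM, with the next of 4 tumors at 746. Il2ra in the T_Treg cells of Primary mouse 10 stood at 668 CPM, with the next at 339.

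UMIs of the 8 genes were also found in wells outside the comparisons. They numbered 145 in 94 wells annotated as Tumor, 183 in 336 Erythrocytes wells, 12 in 165 Outlier wells and 416 in 128 wells without label that had 500 or more UMIs, against 7 in 592 empty wells. Per well this was 3.25 in the unlabelled and 0.0118 in the empty wells, which differ in depth: per 1000000 UMIs of the same wells it was 245 and 824.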

How the results depend on the processing

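Of the values of single genes under the alternatives, 380 kept their direction and side of the threshold, 10 gained a call, 9 lost one and 13 reversed. Genes called in Primary against MET Core numbered 13, and 98 with DESeq2, 342 without filter, 1 with the batch covariate, 36 in cells under 10000 UMIs (an alternative chosen after seeing the data) and 1 to 10 with a replicate left out. Outside T_Treg there were 14, and under the same settings 65, 346, 1, 23 and 2 to 9, with 8 in cells of 1000 or more UMIs. Within T_Treg there were 2, and 0 with DESeq2 size factors, in cells of 1000 or more UMIs or with batch, 1 with 10 cells per sum or in cells under 10000 UMIs, 5 in 1 fit of all tissues and 0 to 12 with a replicate left out, the 12 without MET Core mouse 36. MET against Distal normal tissue gave 0, and 1 with DESeq2, 7 without filter and 9 in 1 fit of all tissues; outside T_Treg it gave 0, and 4 without filter and 5 in 1 fit. MET Core against margin gave 0, and 22 without filter. Pre-MET against Normal gave 56, and 121 with DESeq2, 0 in cells of 1000 or more UMIs or in 1 fit of all tissues, and 0 to 42 with a replicate left out. The interaction gave 2 genes, and 1 with 10 cells per sum. The cause of these shifts was not tested. The T_Treg shares, batch means and Ikzf2 label means without 1 library were also computed after seeing the data.

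With mouse as a replicate block, MET against Distal normal tissue gave 1 call, MET Core against margin 2 and Primary against Pre-MET 488 in place of 664, and the difference in Foxp3 share between MET and Distal normal tissue turned to -0.0254 points, as with 10 cells per sum. The block changed no other call of the 8 genes. No paired analysis was possible for Primary against MET Core or Pre-MET against Normal because no mouse gave both tissues. The Foxp3 share difference between Primary and MET Core was 8.00 points without thinning.

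Log2 fold changes that reversed were Tnfrsf4 -0.053, Tnfrsf18 -0.38 and Icos -0.14 in MET Core against margin and Tnfrsf18 0.014 in Pre-MET against Normal, all in cells of 1000 or more UMIs; and with the batch covariate, Ikzf2 -0.64 and Icos -0.11 within T_Treg and Tnfrsf18 -1.68 and Icos -1.79 outside it, in Primary against MET Core. With a replicate left out, Tnfrsf18 ran from -0.51 to 0.17 and Icos from -0.75 to 0.96 in Pre-MET against Normal, and Tnfrsf9 outside T_Treg from -0.90 to 0.12. The comparison of MET with Distal normal tissue within T_Treg, its interaction, and a batch covariate for the 2 comparisons with Pre-MET could not be fitted. Leaving the alternative settings aside, Foxp3, with 270 UMIs in all immune cells, passed the low-count filter in the interaction alone.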
